A study of Mus musculus with 6 samples.

Results

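The genes described are 9 amino acid transporter genes of the plasma membrane, Slc3a2, Slc7a1, Slc7a5, Slc7a6, Slc7a11, Slc1a4, Slc1a5, Slc38a1 and Slc38a2. They were taken by symbol from an mRNA table of 22298 genes, and all 9 were found there once and had enough counts to be tested. The set was chosen with the difference between si-METTL3 and si-NC already known, so its counts, fold changes and adjusted p-values in that contrast are given as a description and not as independent support. The RNA came from GC-1spg, a mouse line of immortalised cells that stands in for type B spermatogonia. All 6 libraries are of cells transfected with siRNA at a density of 60% and collected 48 h later, 3 of them with a control siRNA (si-NC). The siRNA of the 3 other libraries (si-METTL3) targets Mettl3, the gene of the catalytic subunit of the m6A methyltransferase. The labels call the si-NC libraries untreated, which conflicts with their titles. The titles were followed here, and by them no group is of cells without siRNA. The labels also print 1 sequence for both siRNAs, which leaves that of the control unknown. Neither m6A, protein nor amino acid uptake was measured. Whether the replicates were separate cultures is not stated, and the p-values cover only the spread among these libraries, which may be technical.

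Cells take up amino acids through families of carriers with different partners and driving forces. SLC3A2 (CD98 heavy chain, 4F2hc) carries no amino acid itself. It is a glycoprotein that binds a light chain of the SLC7 family through a disulfide bond and brings it to the cell surface. Its light chains include SLC7A5 (LAT1), which exchanges large neutral amino acids such as leucine, SLC7A6 (y+LAT2), which exchanges cationic for neutral amino acids, and SLC7A11 (xCT), which imports cystine in exchange for glutamate. SLC7A1 (CAT1) carries arginine and lysine without a heavy chain. SLC1A4 (ASCT1) and SLC1A5 (ASCT2) are sodium-dependent exchangers of small neutral amino acids, and ASCT2 carries glutamine. SLC38A1 (SNAT1) and SLC38A2 (SNAT2) are sodium-coupled importers that accumulate glutamine, alanine and other neutral amino acids. Several of these genes are known targets of ATF4, the transcription factor of the amino acid response, which acts at CARE elements (C/EBP-ATF response elements).

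Sequences around the start sites are shown because the stretches searched differed in whether they held such an element. A further reason is that Slc3a2 shares its start region with a second transcript. RefSeq promoter windows (GRCm38.p6, 250 bases before to 50 after a start) were matched for 6 of the 9 genes. The CARE core, searched as TGATGNAA on both strands, occurred in 3.97% of all 32851 windows of that length, and in windows of 2 of these 6 genes, Slc7a11 and Slc1a4. In Slc7a11 the core was found in both orientations, at bases -66 to -59 and -47 to -40 from the start, and in Slc1a4 it was found once, at -4 to 4, across the start itself. In the lines below, capitals mark the core, each sequence reads 5′ to 3′ on the gene's strand, and the stretches are chr3:50443614-50443733 (minus strand) and chr11:20332702-20332813 (minus strand).
Slc7a11: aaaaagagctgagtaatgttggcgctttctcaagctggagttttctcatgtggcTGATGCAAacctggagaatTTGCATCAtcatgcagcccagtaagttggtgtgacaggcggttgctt
Slc1a4: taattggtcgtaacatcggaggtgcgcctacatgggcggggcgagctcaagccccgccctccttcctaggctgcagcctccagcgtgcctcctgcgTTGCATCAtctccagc

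The antioxidant response element core, searched as TGACNNNGC on both strands, occurred in 12.4% of all windows, and in windows of Slc7a1 (GCGCTGTCA, bases -11 to -3), Slc7a6 (TGACGTGGC, -68 to -60 from 1 of its 2 starts) and Slc38a2 (TGACGCGGC, -27 to -19). The Slc7a11 window did not hold those letters. These matches describe the letters in a window and say nothing of binding or of elements elsewhere in a gene. The 1 window matched for Slc3a2 lies within the gene (chr19:8713848-8714147, minus strand) and held neither core. The outermost Slc3a2 start faces that of Snhg1, a long noncoding host gene of small nucleolar RNAs on the opposite strand, at a distance of 106 bases in GENCODE M21. Slc7a5 is arranged in the same way with the noncoding gene BC048644, at a distance of 139 bases. The stretches between the RefSeq starts are chr19:8723370-8723486 and chr8:121907687-121907832, shown on the plus strand, which is the strand of the noncoding gene. Both are shown in lower case since neither held a CARE core, and neither held the antioxidant core.
Slc3a2 to Snhg1: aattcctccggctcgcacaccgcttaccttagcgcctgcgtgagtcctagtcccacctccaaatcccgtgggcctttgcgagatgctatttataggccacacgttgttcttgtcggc
Slc7a5 to BC048644: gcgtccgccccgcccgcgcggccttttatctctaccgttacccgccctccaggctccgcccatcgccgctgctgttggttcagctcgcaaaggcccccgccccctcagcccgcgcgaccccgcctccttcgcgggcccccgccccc

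The libraries held between 22146057 and 37698956 counts in the mRNA table. Mettl3, the targeted gene, had 606, 578 and 683 counts in si-NC against 142, 134 and 136 in si-METTL3. Of 17 fixed germ line markers 6 had enough counts to be tested, 1 of them (Gfra1) passed, and Sohlh1, Nanos2 and Sall4 were at 0 in every library. The 17 summed to 60.8 to 73.2 CPM (counts scaled to a common library size) in si-NC against 62.6 to 68.4 in si-METTL3. The summed level of 12 lung epithelial markers was, for si-NC replicates 1 to 3, 3.39, 1.99 and 58.7 CPM, and 60.3 to 88.3 CPM for si-METTL3, with none of the 12 at 0 in all libraries. The 8 blood markers (0.855, 1.03 and 12.9 CPM in si-NC against 13.4 to 20.0 in si-METTL3) and the 10 macrophage and endothelial markers (19.8, 20.2 and 40.3 CPM in si-NC against 41.7 to 51.3 in si-METTL3) showed the same split. The 9 brain markers, of which 8 were tested and 1 (Syt1) passed, summed to 65.0 to 71.2 CPM in si-NC against 71.0 to 77.3 in si-METTL3. The 11 Sertoli and gonadal somatic markers summed to 298 to 344 CPM in si-NC against 545 to 588 in si-METTL3. Of these, 9 were tested and 5 passed (Wt1, Gata4, Clu, Trf and Acta2), and the sum does not give the direction of each gene. Beside these marker counts, 10.2% of all tested genes were called lower and 8.67% higher. The part of any marker list in the transporter values was not tested. For the transporters, si-NC replicate 3 therefore gives a control library with a lung marker level like that of si-METTL3, and its values are set out beside the others below. In bulk RNA, fewer cells of a kind and less RNA per cell cannot be told apart.

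Among the 9 genes, 3 were lower in si-METTL3 at an adjusted p under 0.05 (Slc3a2, Slc7a1 and Slc7a6), 1 was higher (Slc38a1), and 5 did not pass (edgeR quasi-likelihood test, Benjamini-Hochberg adjustment over all 13082 tested genes). Across all tested genes, 10.2% were called lower and 8.67% higher, and since the set was chosen on this contrast nothing is read from the comparison. The median log2 fold change was -0.30 over the 9 genes and 0.03 over all tested genes. By CPM the groups did not overlap for 8 genes, 6 lower and 2 higher in si-METTL3, where 21.3% and 20.2% of all tested genes were so separated. In the authors' deposited table the adjusted p was under 0.05 for the same 4 genes in the same directions, against 6.44% of its genes listed as lower and 5.44% as higher. For the 9 genes those adjusted p-values were nearly those of DESeq2 on the same counts, so they add no separate support.

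**Figure D1:**
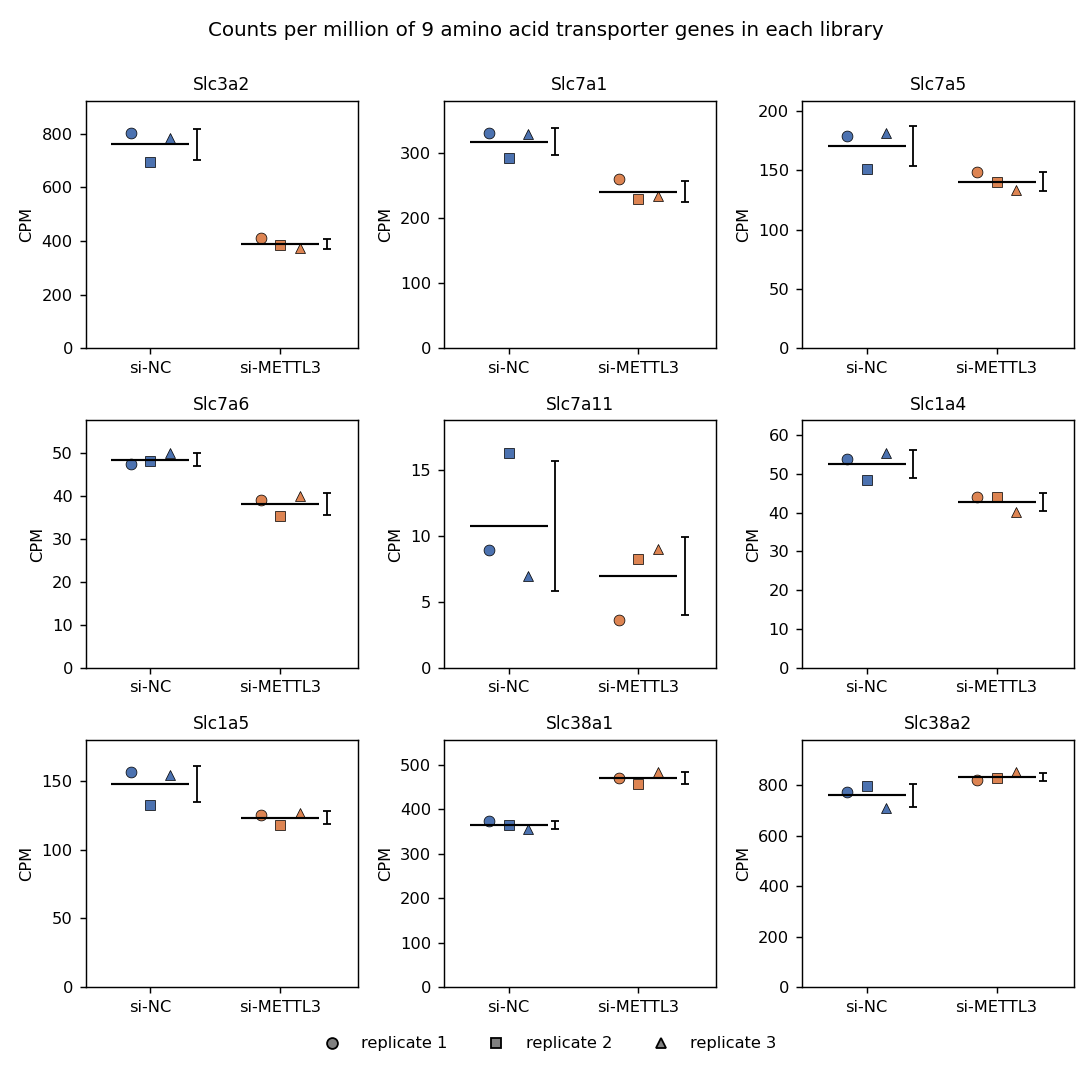
CPM (y axis, from 0) of each of the 9 transporter genes in the 3 si-NC and 3 si-METTL3 libraries (points, with a symbol per replicate number), with the group mean as a line and the SD as a bar. Slc3a2 lies between 372 and 410 CPM in si-METTL3 and between 693.5 and 802 in si-NC, Slc38a1 and Slc38a2 lie higher in si-METTL3 on this scale (not after the length and GC correction, where Slc38a2 turns to -0.13), and the groups overlap for Slc7a11.

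Slc3a2, the shared heavy chain (ENSMUSG00000010095, chromosome 19, 8706882 to 8723369, minus strand, GRCm38), had 28123, 20911 and 28826 counts in si-NC against 13107, 8638 and 9177 in si-METTL3. Scaled to library size these were 802, 693.5 and 785 CPM against 410, 385 and 372 CPM. Every si-METTL3 library was below every si-NC library, and si-NC replicate 3 stood with the other control libraries. The mean was 760.1 ± 58.3 CPM (SD, n = 3) in si-NC against 389 ± 19.3 in si-METTL3, a 1.95-fold fall (log2 fold change -0.97, SE 0.08, edgeR adjusted p = 0.000801). This call held in each of the 6 fits that left out 1 library, with log2 fold changes of -1.03 to -0.93 and an adjusted p of at most 0.0106. It was the only one of the 9 genes called under all 15 alternatives.

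Of the 3 light chains of SLC3A2 in the set, Slc7a6 passed while Slc7a5 and Slc7a11 did not, and differences between genes were not tested. Slc7a5 (ENSMUSG00000040010, chromosome 8, 121881150 to 121907694, minus strand) had 179, 151 and 181 CPM in si-NC against 149, 140 and 134 in si-METTL3. The lowest control library, replicate 2, lay only just above the highest si-METTL3 library. The log2 fold change was -0.28 (SE 0.09) and did not pass (edgeR adjusted p = 0.0756), while without si-NC replicate 2 it was -0.36 (edgeR adjusted p = 0.00858). Slc7a6 (ENSMUSG00000031904, chromosome 8, 106168857 to 106198706, plus strand) was steady within the control group, with 47.3, 48.0 and 50.04 CPM in si-NC against 39.1, 35.3 and 39.9 in si-METTL3. It fell by 0.35 on the log2 scale (SE 0.08, edgeR adjusted p = 0.0289), but with single libraries left out the call held in only 1 of 6 fits, the one without si-NC replicate 2, and the adjusted p reached 0.116 in the others.

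Slc7a11 (ENSMUSG00000027737, chromosome 3, 49892526 to 50443614, minus strand), the cystine carrier, was by far the lowest and the most variable of the set. Its counts were 313, 493 and 256 in si-NC against 115, 186 and 223 in si-METTL3, that is 8.92, 16.4 and 6.97 CPM against 3.598, 8.29 and 9.05. The groups overlapped, with si-NC replicate 2 highest and si-METTL3 replicate 1 lowest. The log2 fold change was -0.63 with an SE of 0.42 (edgeR adjusted p = 0.32), and it ranged from -0.89 to -0.20 as single libraries were left out, the value nearest to 0 being that without si-NC replicate 2. The difference passed after a correction for transcript length and GC content (-1.11, edgeR adjusted p = 0.0116).

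Slc7a1 (ENSMUSG00000041313, chromosome 5, 148327410 to 148399904, minus strand), the arginine and lysine carrier that needs no heavy chain, had 330, 292 and 328 CPM in si-NC against 259, 229 and 233 in si-METTL3, without overlap. It fell 1.32-fold (log2 fold change -0.40, SE 0.08, edgeR adjusted p = 0.0188). It missed the threshold when si-NC replicate 1 (0.0845) was left out, and likewise replicate 2 (0.0879) or replicate 3 (0.0858) of si-METTL3.

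The ASC-type exchangers had log2 fold changes of like size, and neither passed. Slc1a4 (ENSMUSG00000020142, chromosome 11, 20302180 to 20332713, minus strand) had 53.9, 48.5 and 55.5 CPM in si-NC against 44.2, 44.0 and 40.1 in si-METTL3 (log2 fold change -0.30, SE 0.09, edgeR adjusted p = 0.053). Slc1a5 (ENSMUSG00000001918, chromosome 7, 16781340 to 16798274, plus strand) had 157, 133 and 155 CPM in si-NC against 126, 118 and 127 in si-METTL3 (-0.26, SE 0.08, edgeR adjusted p = 0.0725). In both genes the groups did not overlap and si-NC replicate 2 was the lowest control library, and both passed without it (adjusted p = 0.0141 and 0.00812). A noncoding transcript of the Slc1a5 locus, Slc1a5-204, was counted in the lncRNA table at 107, 28 and 66 counts in si-NC against 43, 60 and 31 in si-METTL3, which overlapped (log2 fold change -0.25, SE 0.52).

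The system A carriers of the SLC38 family lay on the other side of 0. Slc38a1 (ENSMUSG00000023169, chromosome 15, 96571418 to 96642913, minus strand) had 373, 365 and 355 CPM in si-NC against 471, 457 and 484 in si-METTL3. The groups were far apart compared with their spread (364 ± 8.95 against 471 ± 13.5 CPM, SD, n = 3), and the gene rose 1.29-fold (log2 fold change 0.37, SE 0.06, edgeR adjusted p = 0.00903). Without si-METTL3 replicate 3 the adjusted p was 0.0575. Slc38a2 (ENSMUSG00000022462, chromosome 15, 96687392 to 96699730, minus strand), its neighbour on the chromosome, had 775, 797 and 710 CPM in si-NC against 820.5, 828 and 853 in si-METTL3. Its log2 fold change was 0.13 (SE 0.07, edgeR adjusted p = 0.199).

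Transcript length and GC content bear on the SLC38 pair. With each library corrected for both, the log2 fold change of Slc38a1 was 0.08 (edgeR adjusted p = 0.478) and that of Slc38a2 -0.13 (edgeR adjusted p = 0.348). The longest coding transcript of Slc38a1 has 7266 bases, against 2813 for Slc3a2. In the same corrected fit the 7 other genes were all called lower, where 17.9% of the 13075 genes in that fit were called lower and 9.66% higher, 3604 in all against 2468 without the correction. The 7 included Slc3a2 at -0.94, Slc7a1 at -0.66 and Slc7a11 at -1.11 (edgeR adjusted p = 6.54e-05, 0.00332 and 0.0116). The fall of Slc3a2 was thus nearly the same in both fits, the rise of Slc38a1 was no longer called, and the differences of Slc7a1 and Slc7a11 were larger by over 1.5 times after correction.

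**Figure D2:**
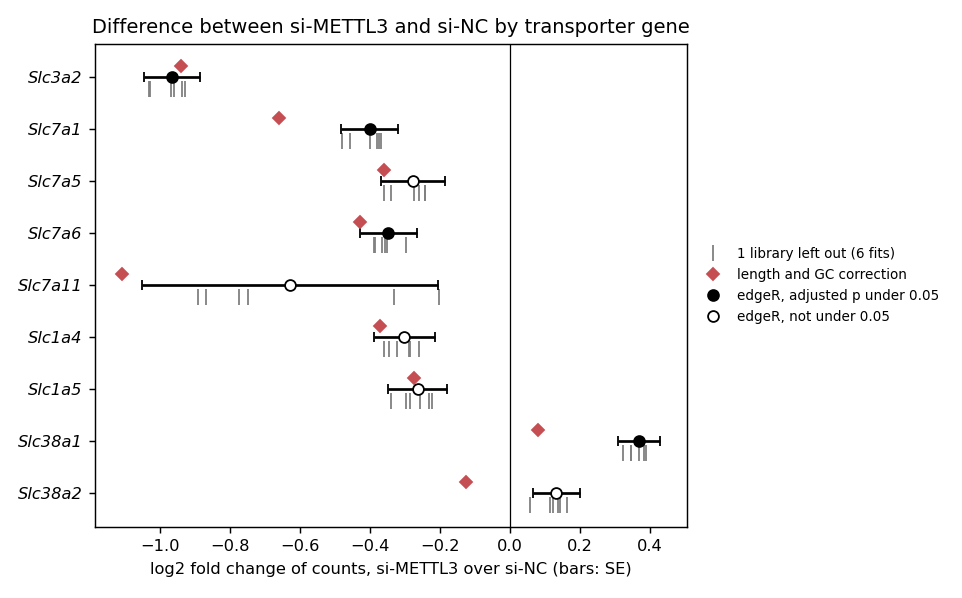
Log2 fold change of counts, si-METTL3 over si-NC (x axis), for each transporter gene (y axis), with the edgeR estimate and its SE (circles and bars), the 6 fits that left out 1 library (ticks) and the fit corrected for length and GC content (diamonds). Slc3a2 stays near -0.97 throughout, Slc7a11 has an SE of 0.42, and Slc38a1 moves from 0.37 to 0.08 after the correction.

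Levels were compared between genes on the deposited FPKM values, which are scaled to transcript length. In si-NC the order was Slc3a2 (349 ± 23.4 FPKM, SD, n = 3), Slc38a2 (134 ± 9.51), Slc38a1 (60.4 ± 1.76), Slc1a5 (46.9 ± 5.07), Slc7a1 (45.0 ± 2.98), Slc7a5 (39.6 ± 3.42), Slc7a6 (15.4 ± 1.29), Slc1a4 (11.1 ± 0.635) and Slc7a11 (2.01 ± 0.883). Among neighbours in this order the libraries overlapped only for Slc1a5 and Slc7a1, and the lowest value of Slc7a1 (41.9) was just above the highest of Slc7a5 (41.7). In si-METTL3 the order of these genes was the same, at 185 ± 11, 148 ± 1.30, 77.0 ± 1.53, 39.9 ± 0.468, 34.9 ± 4.37, 33.1 ± 2.25, 11.1 ± 0.524, 9.12 ± 0.598 and 1.05 ± 0.423 FPKM, and Slc7a1 overlapped with both Slc1a5 and Slc7a5. The gap between the heavy chain and Slc38a2 had narrowed, and Slc38a2 per Slc3a2 went from 0.369, 0.440 and 0.345 in si-NC to 0.752, 0.794 and 0.858 in si-METTL3.

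The heavy chain was in excess of the light chains of the set at the RNA level in every library. Slc3a2 over the summed FPKM of Slc7a5, Slc7a6 and Slc7a11 was 6.14, 5.96 and 6.25 in si-NC against 4.22, 4.07 and 3.99 in si-METTL3. Against Slc7a5 alone the ratio was 8.85, 9.05 and 8.57 in si-NC against 5.53, 5.63 and 5.62 in si-METTL3. Both ratios varied little within a group and did not overlap between groups. Summed over the 9 genes the level was 703 ± 30.7 FPKM in si-NC against 540 ± 17.5 in si-METTL3 (SD, n = 3). Slc3a2 made up 47.9% to 51.0% of that sum in si-NC against 33.3% to 35.2% in si-METTL3. The other 8 genes summed to 367, 351 and 343.5 FPKM in si-NC against 362, 351 and 350 in si-METTL3, which overlapped. On this scale the lower sum over the set was thus in the heavy chain, while lower and higher values among the 8 carriers offset each other. The higher values were those of Slc38a1 and Slc38a2 alone. After the length and GC correction these were at 0.08 and -0.13 on the log2 scale, and the remaining carriers were all called lower. The offset therefore holds only for the uncorrected values. The ratio of Slc1a5 to Slc1a4 (4.52, 3.99 and 4.17 in si-NC, 4.23, 4.23 and 4.68 in si-METTL3) overlapped between the groups.

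**Figure D3:**
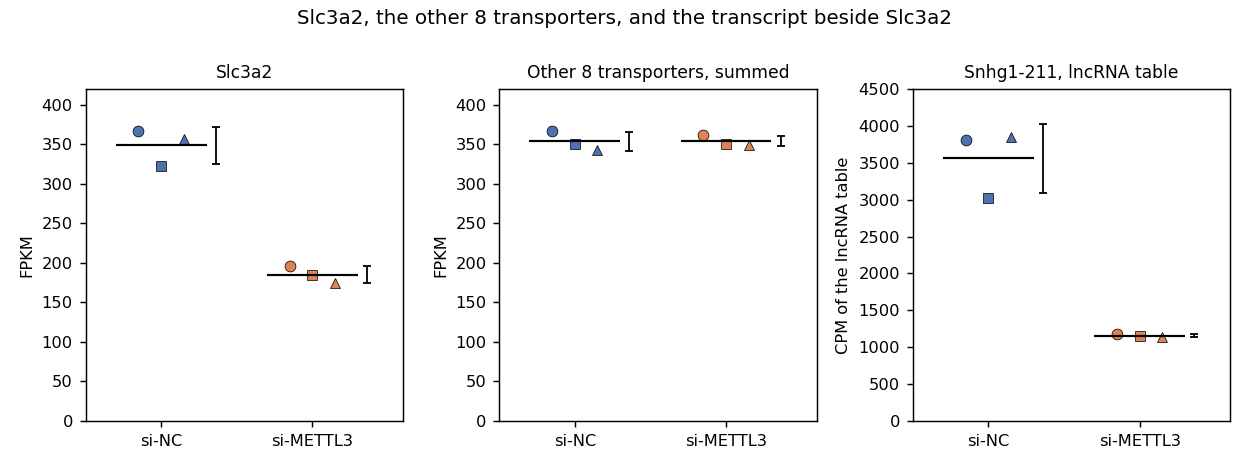
FPKM of Slc3a2, summed FPKM of the other 8 transporter genes, and CPM of the Snhg1-211 transcript in the lncRNA table (y axes, from 0), per library, with circles, squares and triangles for replicates 1, 2 and 3, the group mean as a line and the SD as a bar. Slc3a2 and Snhg1-211 are lower in all 3 si-METTL3 libraries, and the sum of the other 8 genes lies at 343.5 to 367 FPKM in both groups. These values are without the length and GC correction, after which Slc38a1 was at 0.08 and Slc38a2 at -0.13 on the log2 scale.

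The ratio of counts to FPKM shows the transcript length that the authors' quantification used for a gene in each library, and it moves where the mix of transcripts moves. For Slc7a5 and Slc38a2 it was constant over the 6 libraries. For Slc7a11 it was 89.8%, 91.5% and 83.8% of its mean in si-NC against 110%, 106% and 119% in si-METTL3, without overlap. The groups were also apart, by less, for Slc3a2 (101.0% to 101.4% in si-NC against 97.8% to 99.6% in si-METTL3). The same held for Slc38a1 (98.4% to 99.0% in si-NC against 100.5% to 102.3% in si-METTL3). The log2 difference of Slc7a11 in the authors' deposited table is made from FPKM (-0.94), and so is larger in size than that of its counts (-0.63). Its deposited adjusted p (0.241) was close to that of DESeq2 on the counts (0.24). For Slc7a6 the ratio of counts to FPKM ranged from 85.2% in si-NC replicate 1 to 115% in si-METTL3 replicate 1, and the groups overlapped. Both genes have several transcripts in GENCODE M21 (5 for Slc7a11 and 7 for Slc7a6), among which the counts of this table cannot be divided.

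Snhg1, which faces Slc3a2, was counted in the lncRNA table as 4 transcripts. The main one, Snhg1-211, had 10535, 8194 and 10601 counts in si-NC against 3003, 2251 and 2516 in si-METTL3. These were 3806, 3024 and 3849 CPM of that table against 1181, 1146 and 1138, a 3.08-fold fall (log2 fold change -1.62, SE 0.14, edgeR adjusted p = 0.00913), where 0.576% of 5728 tested transcripts were called lower. In si-NC, replicate 2 was the lowest of the 3 for both Snhg1-211 and Slc3a2. This is not particular to the pair. Replicate 2 was also the lowest for Slc7a1, Slc7a5, Slc1a4 and Slc1a5, though not for Slc7a6, Slc7a11, Slc38a1 or Slc38a2. The log2 fold change of Snhg1-211 was larger in size than that of Slc3a2. The lncRNA and mRNA counts were scaled separately, and the difference was not tested. With single libraries left out the call of Snhg1-211 held in 1 of 6 fits, the one without si-NC replicate 2 (adjusted p up to 0.115 in the others). Its log2 fold change stayed between -1.73 and -1.54. The 3 minor transcripts, Snhg1-205, Snhg1-207 and Snhg1-208, had log2 fold changes of -0.75, -0.20 and -0.53 and did not pass. Slc3a2 and Snhg1 share no exon sequence in GENCODE M21, and no annotated gene within 2000 bases overlaps an exon of any of the 9 genes. Snhg1 was chosen for its position after its values had been seen.

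The genes whose pattern over the 6 libraries was most like that of Slc3a2 were sought among 9880 named genes with a mean of at least 5 CPM, by the root mean square distance between log2 CPM profiles centred on each gene's mean. The 5 nearest were Rassf1 (distance 0.029), Pdrg1 (0.032), Trib3 (0.037), Csf1 (0.047) and Ccnd1 (0.057). Rassf1 encodes a RAS-association domain tumour suppressor, Trib3 a pseudokinase induced with ATF4, Csf1 a macrophage growth factor and Ccnd1 cyclin D1. Their log2 fold changes were -0.97, -0.96, -0.93, -1.06 and -0.94. The profiles were centred but not scaled, so the distance mostly follows the gap in log2 fold change. It is therefore no separate sign of likeness to Slc3a2. Of the other 8 transporters the closest, Slc7a1, lay at 0.284 (rank 692), and Slc38a1 was the farthest at 0.673 (rank 7621).

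The other amino acid transporters of the plasma membrane were mostly low. Of 33 listed, 12 had enough counts to be tested and 6 had no count in any library. Of the 12 tested, 3 rose and 1 fell, with a median log2 fold change of 0.35 against 0.03 over all tested genes, where 8.67% of all tested genes were called higher and 10.2% lower. After the length and GC correction 2 were called higher and 2 lower (median 0.24), against 9.66% and 17.9% of the genes in that fit. Slc1a2, a glutamate transporter best known from astrocytes, had 3.16, 7.10 and 6.24 CPM in si-NC against 14.3, 17.4 and 15.2 in si-METTL3 (log2 fold change 1.51, SE 0.28, edgeR adjusted p = 0.0141). Whether the brain markers given above had a part in this value was not tested. Slc7a2, a cationic amino acid carrier related to Slc7a1, rose (log2 fold change 0.81, edgeR adjusted p = 0.01), with means of 10.0 ± 1.33 CPM in si-NC against 17.5 ± 1.69 in si-METTL3 (SD, n = 3), so the closely related genes Slc7a1 and Slc7a2 were called in opposite directions. After the length and GC correction Slc7a2 was at 0.40 and still called (edgeR adjusted p = 0.0228). Slc43a2, a carrier of large neutral amino acids, rose by a log2 fold change of 0.36, which was 0.09 after the length and GC correction. Slc6a9, the glycine transporter GLYT1, fell by 0.50 on the log2 scale. With single libraries left out, the calls of Slc1a2, Slc7a2, Slc43a2 and Slc6a9 held in 4, 3, 1 and 1 of 6 fits.

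Of 14 tested lysosomal and vesicular transporters, 3 fell and 2 rose (median -0.09), against 10.2% and 8.67% of all tested genes. After the length and GC correction 5 were called lower and none higher, against 17.9% and 9.66% of the genes in that fit. Slc36a1, which exports small neutral amino acids from lysosomes, fell by 0.35 on the log2 scale (0.53 after the correction). The counts of the histidine and peptide carrier Slc15a4 fell by 0.27 on the log2 scale, but its deposited FPKM lay the other way, at 23.4, 18.7 and 20.4 in si-NC against 58.0, 26.2 and 63.3 in si-METTL3, so its direction depends on the measure. Slc29a3, the largest fall of the list (-0.55), is known as a nucleoside carrier. Slc38a10 rose by 0.37 and Slc36a4 by 0.52, and neither passed after the length and GC correction (0.17 and 0.15). With single libraries left out, the calls of Slc29a3 and Slc38a10 held in 2 of 6 fits, and those of Slc36a1, Slc15a4 and Slc36a4 in 1 of 6. Of 11 tested mitochondrial carriers only Sfxn3, a sideroflexin, passed, rising from 85.6 ± 6.72 to 125 ± 0.828 CPM (SD, n = 3; a difference of 0.54 on the log2 scale, edgeR adjusted p = 0.00617), where 8.67% of all tested genes were called higher. After the correction 2 of the 11 were called lower and 1 higher, against 17.9% and 9.66% of the genes in that fit.

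Genes of the amino acid response, both regulators and induced genes such as Trib3, were often lower. Of 20 tested genes in the list of ATF4 regulators and uncharged tRNA sensing, 10 fell and none rose (median -0.33), where 10.2% of all tested genes were called lower. After the length and GC correction 13 were called lower and 1 higher, against 17.9% and 9.66% of the genes in that fit. This list was drawn up with that result already known. Atf4 itself fell (log2 fold change -0.93, SE 0.10, edgeR adjusted p = 0.00252), with means of 195 ± 19.9 CPM in si-NC against 102 ± 9.42 in si-METTL3 (SD, n = 3), an amount close to that of Slc3a2. Ddit3, the stress-induced transcription factor CHOP, fell by 1.14 and Trib3 by 0.93 on the log2 scale. For comparison, the log2 fold changes of the transporters were -0.97 for Slc3a2, -0.63 for Slc7a11, -0.40 for Slc7a1, -0.35 for Slc7a6, -0.30 for Slc1a4, -0.28 for Slc7a5, -0.26 for Slc1a5, 0.13 for Slc38a2 (-0.13 after the correction) and 0.37 for Slc38a1 (0.08 after it). The differences between genes were not tested. Eif2ak4, the kinase GCN2 that senses uncharged tRNA, stood at 0.09 on the log2 scale (SE 0.06), and its coactivator Gcn1 -0.01 (SE 0.07). These values were chosen after they had been seen.

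**Figure D4:**
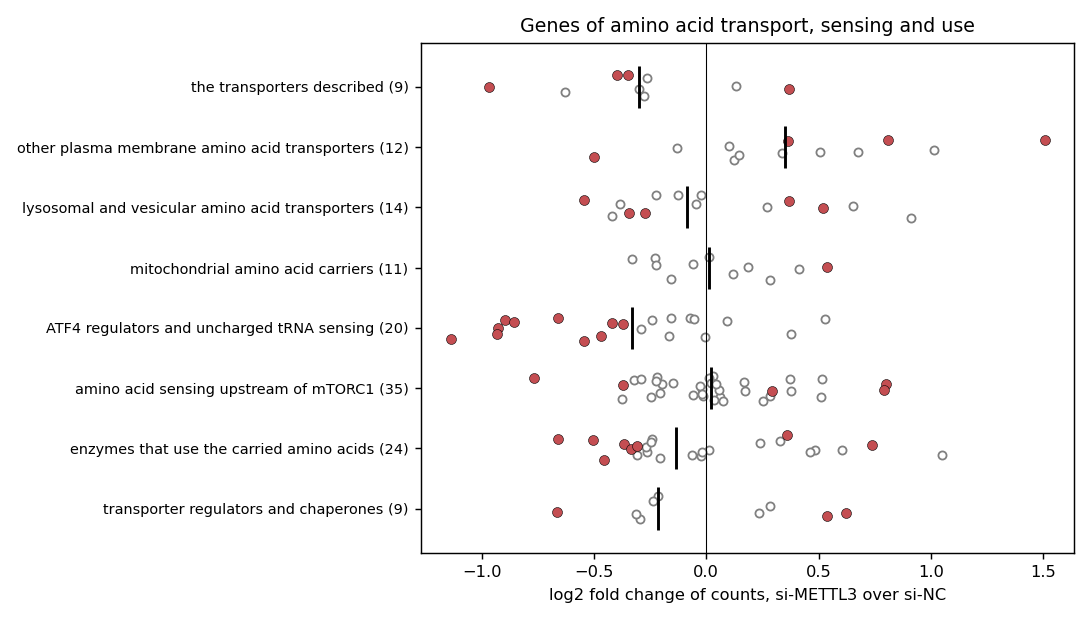
Log2 fold change of counts, si-METTL3 over si-NC (x axis), of each tested gene in 8 lists (y axis, number of tested genes in brackets), filled where the edgeR adjusted p was under 0.05, with the list median as a vertical bar. The transporters described have a median of -0.30, the ATF4 list -0.33, and the other plasma membrane transporters 0.35.

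Genes that report amino acid supply to the growth kinase complex mTORC1 had a median close to that of all tested genes (0.02 against 0.03), with 2 of 35 tested genes called lower and 3 higher, against 10.2% and 8.67% of all tested genes. After the length and GC correction these were 7 and 4, against 17.9% and 9.66%. Nprl3, a subunit of the GATOR1 inhibitor, fell by 0.77 and the activating GTPase gene Rheb by 0.37 on the log2 scale. Mios, a GATOR2 subunit, rose by a log2 fold change of 0.79, Sesn3 by 0.80 and Tsc1 by 0.29, and after the correction Sesn3 was at 0.38 and Tsc1 at 0.01. With single libraries left out, each of these 5 calls held in 3 fits at most. The related gene Sesn2 was counted in the ATF4 list and not here. It fell by 0.86 on the log2 scale (edgeR adjusted p = 0.00231), while Sesn1 was at 0.29 and did not pass.

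Among 24 tested enzymes that make or use the carried amino acids, 6 fell and 2 rose (median -0.14), against 10.2% and 8.67% of all tested genes. The 6 included the serine synthesis genes Phgdh, Psat1 and Psph, at -0.37, -0.34 and -0.31 on the log2 scale. Corrected for length and GC content, 10 were called lower and 4 higher, against 17.9% and 9.66% of the genes in that fit. The glutamine and glutamate enzymes took opposite directions. Glul, glutamine synthetase, rose (log2 fold change 0.74, SE 0.07, edgeR adjusted p = 0.00162), with means of 89.2 ± 5.82 CPM in si-NC against 149 ± 1.61 in si-METTL3 (SD, n = 3). Glud1, glutamate dehydrogenase, fell from 343 ± 23.7 to 217 ± 14.9 CPM (-0.66, SE 0.08, edgeR adjusted p = 0.00385). Each of these calls held whichever of the 6 libraries was left out. The alanine aminotransferase gene Gpt2 fell by 0.50 on the log2 scale, and Odc1, the ornithine decarboxylase of polyamine synthesis, by 0.46. Gclm, the modifier subunit of the enzyme that joins cysteine to glutamate, rose by 0.36 and was at -0.01 after the correction. With single libraries left out, the calls of Gpt2, Odc1 and Gclm held in 5, 2 and 1 of 6 fits.

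Of 9 known regulators and chaperones of these transporters, 1 fell and 2 rose (median -0.21), against 10.2% and 8.67% of all tested genes. With the correction 2 were called lower and 2 higher, against 17.9% and 9.66% of the genes in that fit. Myc, a transcription factor known to raise glutamine and leucine carriers, fell (log2 fold change -0.67, SE 0.07, edgeR adjusted p = 0.00202), with means of 225 ± 10.8 CPM in si-NC against 142 ± 6.29 in si-METTL3 (SD, n = 3). Nfe2l2, which encodes NRF2, an activator of Slc7a11, rose by a log2 fold change of 0.54, and the ubiquitin ligase gene Nedd4 by 0.62 (0.36 after the correction). With single libraries left out, the calls of Nfe2l2 and Nedd4 each held in 3 of 6 fits. No part of any of these genes in the transporter values was tested.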

How the data were processed

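RNA of 6 GC-1spg libraries (3 si-NC, 3 si-METTL3, groups from the titles) was used. Per the file headers, the authors deposited counts and FPKM per library for 22298 mRNA genes and 30924 lncRNA transcripts, with group means, a log2 ratio of these means, and p-values from a test that no source names. For the transporters the deposited adjusted p-values lay close to those of DESeq2 on the counts. The submitters' processing notes list build mm9 and the tools RSEM, StringTie, Bowtie2 and fastp, with no role or version. All deposited counts were whole numbers. How reads shared by paralogs were divided, or whether strand was used, is not stated.

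The test was that of edgeR 4.0.16 (R 4.3.3) on the counts (TMM, filterByExpr, quasi-likelihood fit of the group, Benjamini-Hochberg adjustment, threshold 0.05), each table separately, and the code was tested on simulated data. CPM used effective library sizes. SE is the log2 fold change over the root of the F statistic. DESeq2 1.42.0, limma 3.58.1 on log2(FPKM + 1), and a correction by splines of length and GC content (annotated for 22255 genes) were alternatives. GENCODE M21 and RefSeq (GRCm38) gave names, positions and sequences, and no coordinate was converted. Totals of 22146057 to 37698956 counts per library gave at least 791 counts to each transporter except Slc7a11 (115 to 493). Figures were drawn with matplotlib 3.10.9.

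The transporters and lists were chosen with earlier results of these data known. Besides the transporters, the text names up to 3 called genes in each direction per list and the 5 nearest profiles to Slc3a2. Other named genes were chosen after their values were seen. No set test was run. The replicate numbers were not taken as pairs: correlations over genes between same-numbered libraries' deviations from their group means were 0.071, 0.200 and -0.310.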

Additional observations from a re-analysis of the deposited data

How the results depend on the processing

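Slc3a2 was called lower under all 15 alternatives. Of 135 values of single transporters under an alternative, 114 kept their direction and side of the threshold, 12 lost a call (6 of them of Slc7a6 and 4 of Slc7a1), 8 gained one and 1 turned direction, that of Slc38a2 after the length and GC correction (-0.13). That correction called 7 transporters lower and 0 higher, against 3 and 1, with 3604 genes called in all against 2468, 17.9% of the genes lower and 9.66% higher against 10.2% and 8.67%. Leaving out 1 library gave 1 to 6 transporters called lower and 0 to 1 called higher, and 665 to 4917 genes called in all, against 2468; the 6 called lower and the 4917 genes came without si-NC replicate 2, the 665 without si-METTL3 replicate 3. With a replicate block, 1273 genes were called, 2 transporters lower (Slc3a2 and Slc7a1) and 1 higher, and Slc7a6 missed the threshold (edgeR adjusted p = 0.0676); the same-numbered libraries were not the best correlated in every case, so the numbers are not taken as pairs. The cause of these moves was not tested. Slc7a11 had the fewest counts of the 9 genes (115 to 493) and the largest SE (0.42), and of the 15 alternatives it was called under the length and GC correction alone.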
